A study of Mus musculus with 8 samples.

Results

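Distal intronic ATAC peaks found in both MPP3 and MPP4 cells were examined. A peak was taken when its center lay more than 1 kb from every annotated transcript start, inside a gene but in no exon, and when it shared at least 1 bp with a peak of the other cell type. These rules gave 24126 of 87642 MPP3 peaks (27.5%) and 24112 of 86952 MPP4 peaks (27.7%), called shared intronic peaks from here on. Both tables hold peaks of the 19 autosomes only. Both cell types are multipotent progenitors, of which MPP3 cells tend to myeloid and MPP4 cells to lymphoid fates. The study measured their chromatin accessibility by ATAC-seq, in which the Tn5 transposase cuts open DNA, in mice with and without the transcription factor EBF1. The 8 libraries, each from 5000 sorted cells, formed 4 groups of 2 by genotype and cell type.

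All mice were C57BL/6 in the labels and C57BL/6J in the methods, and untreated as far as the labels say. The *Ebf1* KO mice carried floxed *Ebf1* alleles and a Tie2Cre allele, so that Cre was made under the *Tek* promoter, which is active in endothelium and blood stem cells. The *Ebf1* WT mice are floxed without Cre in the sample labels, carry wild-type alleles with Cre in the series' design, and may be of either kind in the methods. *Ebf1* WT MPP3 mice were 8 weeks old, and the *Ebf1* KO MPP3 mice were 8 and 9 weeks old. Both *Ebf1* WT MPP4 mice were 9 weeks old, and 1 of them was male, whereas both *Ebf1* KO MPP4 mice were 8 weeks old. MPP3 cells were sorted as lineage-negative Sca1+ cKit+ (LSK) CD150- CD48+ cells, and MPP4 cells were in addition Flt3+. The MPP3 gate in the labels does not name Flt3.

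Introns hold many of the enhancers of blood cells, which act on promoters over a distance and are opened by combinations of transcription factors. RUNX1, PU.1 and other ETS factors bind such elements in most progenitors. GATA1 and GATA2 act in the megakaryocytic, erythroid and mast cell branches, and E proteins such as E2A act in lymphoid development.

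The level of a peak is given as the authors' mean log2 CPM (read counts scaled to library size) over the 4 libraries of a cell type, with both genotypes together. No value per library was analysed here, so the levels carry no error between mice and no genotypes were compared. The tables of MPP3 and MPP4 cells were normalized separately. A difference between them is therefore a description without a test. Each difference is the MPP3 minus the MPP4 level of overlapping peaks, centered on the median of all 66324 shared MPP3 peaks (−0.04 before centering). Levels of different peaks were compared per kb of peak length. Because age and sex were not balanced between the cell types, their part in a difference cannot be told apart from cell type.

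The labels were checked against peaks at the genes of the sorted markers. At *Flt3*, the receptor that defines the MPP4 gate, the highest peak had a log2 CPM of 5.92 in MPP3 and 7.01 in MPP4 cells. *Kit* reached 5.54 and 5.63, and *Ptprc*, the CD45 gene, reached 5.09 and 5.18. *Flt3* was thus open in both cell types and higher in MPP4 cells. *Cd48* was low, with 2.77 and 2.5, and *Ly6a*, which encodes Sca1, had a single peak of 1.36 in MPP3 and 1.15 in MPP4 cells. *Slamf1*, whose product CD150 was absent from both gates, did not exceed 1.42. Among lineage markers, *Ly6g* had 0 peaks in either table. The highest *Itgam* peak had 2.92 in MPP3 and 3.16 in MPP4 cells, and the single *Cd3e* peak had 1.09 and 2.75.

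Distal intronic peaks were the largest class of MPP3 peaks, with 33676 (38.4%), followed by 26683 intergenic, 23478 promoter and 3805 exonic peaks. Of the distal intronic MPP3 peaks, 71.6% (95% Wilson interval 71.2 to 72.1%) overlapped an MPP4 peak. This share was 71.5% for intergenic and 86.6% for promoter peaks, where promoter means within 1 kb of a transcript start. In the MPP4 table, 72.7% (72.3 to 73.2%) of the 33149 distal intronic peaks overlapped an MPP3 peak. Distal peaks were thus shared to the same degree inside and outside of genes, and less often than promoters. Wilson intervals in the text cover counting error only.

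The boundaries of shared intronic peaks were close in both tables. The MPP4 peak covered a median of 98.1% of the MPP3 peak, and 23739 MPP3 peaks (98.4%) formed pairs in which neither peak overlapped a further peak. By the same position rule, 23955 partners were intronic, 129 were exonic and 42 were promoter peaks. The lowest, median and highest lengths in MPP3 cells were 150, 282 and 1554 bp. Distal intronic peaks found in MPP3 cells alone were shorter, with a median of 198 bp, and shared promoter peaks were longer, with 391 bp.

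Shared intronic peaks were more open than those of a single cell type and less open than promoters. Their median level was 4.15 log2 CPM per kb in MPP3 and 4.18 in MPP4 cells. The 9550 distal intronic peaks found in MPP3 cells alone had a median of 3.51, and shared promoter peaks had 5.22. Shared intergenic peaks had 4.13, close to the intronic value. Shared peaks had to be called in both tables, so their higher level is not independent of how they were chosen. Per peak, levels ranged from 0.25 to 8.39 log2 CPM in MPP3 cells, with a median of 2.32, and from 0.14 to 8.45 in MPP4 cells, with a median of 2.47. Across the 24126 pairs, the levels per kb of MPP3 and MPP4 cells had a Spearman correlation of 0.835, a description of pairs that share most of their sequence.

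The position limit did not mark a step in accessibility. The 310 shared intronic peaks up to 100 bp beyond the 1 kb limit had a median of 4.58 log2 CPM per kb. The 332 peaks up to 100 bp inside of it, which were not taken, had 4.42. The median distance of the shared intronic peaks to the closest transcript start was 8789 bp, and the largest was 369879 bp. Accessibility decreased with this distance. The median MPP3 level per kb was 4.33 for the 7709 peaks 1 to 5 kb from a start, 4.11 for the 10605 peaks at 5 to 20 kb, 4.03 for the 4247 peaks at 20 to 50 kb and 3.95 for the 1565 peaks beyond 50 kb. The share of distal intronic MPP3 peaks that overlapped an MPP4 peak was 74.1%, 71.3%, 70.2% and 66.7% in the same order.

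Within genes, 8283 shared intronic peaks (34.3%, 33.7 to 34.9%) lay in the first intron and 4467 (18.5%) in the second. Among distal intronic peaks of a single cell type, the first intron held 32.0% (31.1 to 33.0%) in MPP3 and 33.2% (32.3 to 34.2%) in MPP4 cells. The peaks were spread along the gene. The first 10% of the gene, which is most affected by the 1 kb limit, held 8.96% of them, and the last 10% held 7.32%. Protein-coding genes contained 21530 of the peaks (89.2%), lincRNA genes 1640 and antisense genes 442.

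The peaks fell into 8312 genes, of which 3917 had a single one. The 1374 genes with at least 5 held 12248 peaks (50.8%). The 10 genes with the most were long, and the numbers are therefore also given per 100 kb of gene. *Gm20388*, an annotated gene of 4435 kb on chromosome 8, had 150 peaks or 3.38 per 100 kb. *Pde4d*, a cAMP phosphodiesterase, had 59 in 1504 kb, or 3.92 per 100 kb. *Gse1* had 48 in 353 kb, at 13.6 per 100 kb the densest of the 10. *Arid1b*, a subunit of the BAF chromatin remodeler, had 41 in 353 kb (11.6 per 100 kb). *Maml3*, a coactivator of Notch signaling, also had 41, in 419 kb (9.78 per 100 kb). *Hivep3* had 35, *Prkce* 33, *Zfhx3* 32, and *Ldlrad4* and *Snx29* 31 each.

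The median centered difference of shared intronic peaks was −0.10, close to the −0.09 of intergenic pairs, whereas promoter pairs had a median of 0.15. Differences were small at most sites. In 60.7% of the intronic pairs, MPP3 and MPP4 levels were within 0.5 log2 units of each other, compared with 73.8% of the promoter pairs. A difference of at least 1 log2 unit (2-fold) toward MPP3 cells was seen in 1152 pairs (4.77%), against 4.12% of all shared peaks. A difference of this size toward MPP4 cells was seen in 1665 pairs (6.90%), against 5.41% of all shared peaks. These pairs are called MPP3-high and MPP4-high below.

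The balance of both directions depended on the scaling and on the level filter. MPP3-high pairs made up 40.9% of both sets together, and 36.3% without centering. With differences centered in 20 bins of GC content, which is higher at promoters, there were 1392 MPP3-high and 1328 MPP4-high pairs, so that MPP3-high pairs made up 51.2%. The excess of MPP4-high pairs was thus absent after GC centering, a step that itself shifts this balance. Median GC content was 50.7% in MPP3-high and 50.6% in MPP4-high pairs, and its part in the balance was not tested. Levels were counted over the peak of each table, and the higher peak was the longer one in 97.0% of MPP3-high and 98.1% of MPP4-high pairs. MPP3-high pairs had a median length of 367.5 bp in MPP3 and 236 bp in MPP4 cells, and MPP4-high pairs had 261 and 403 bp. Per kb of each peak, 317 pairs were MPP3-high and 566 MPP4-high, and MPP3-high pairs made up 35.9%. With a log2 CPM of 2 or more in both tables, 361 pairs were MPP3-high and 909 MPP4-high, and the share was 28.4%.

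MPP4-high pairs became more frequent with distance from the transcript start, from 5.71% at 1 to 5 kb to 6.80% at 5 to 20 kb, 8.36% at 20 to 50 kb and 9.52% beyond 50 kb. MPP3-high pairs did not follow this order, with 4.76%, 4.90%, 4.40% and 4.98%. Median GC content fell in the same order, from 51.5% to 50.7%, 50.2% and 49.1%. After GC centering the MPP4-high shares still rose, with 4.70%, 5.44%, 6.55% and 7.09%. Differences of neighboring peaks of the same gene were similar at short range. The Pearson correlation of the centered difference was 0.439 (Spearman 0.399) over 2393 neighbors with centers up to 2 kb apart. It was 0.136 over 5932 neighbors 2 to 10 kb apart and 0.0791 over 6262 neighbors 10 to 50 kb apart, and 0.107 over the 1227 neighbors further apart. These neighbors share libraries and, at short range, base composition. Of the 1374 genes with at least 5 peaks, 1278 had peaks on both sides of 0, 80 had all peaks lower in MPP3 cells and 16 had all peaks higher.

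Sequence words of blood transcription factors were counted in windows that reached 100 bp to either side of the MPP3 peak center, on both strands. For comparison, 36675 intronic windows of the same length were placed 5 kb to either side, outside of peaks. These windows had a median GC content of 45.3%, compared with 50.7% in the shared intronic peaks, so words rich in A and T have more chance to occur in the windows. A word is a description of the sequence and not a bound site.

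ETS words differed most between the shared intronic peaks and intron sequence outside of peaks, and RUNX words were the most frequent of the 18 motifs searched. The PU.1 word GAGGAAGT was in 11.1% (10.7 to 11.5%) of the peaks and 1.10% of the windows. The ETS words AGGAAGT and CGGAAGT, the first of which is contained in the PU.1 word, were in 25.4% (24.9 to 26.0%) and 4.88%. The RUNX words TGTGGT and TGCGGT were in 34.6% (34.0 to 35.2%) and 16.9%. Shared intergenic peaks gave nearly the same shares, with 11.0% for PU.1, 24.6% for ETS and 33.1% for RUNX. Promoter peaks had fewer of each, with 4.31%, 16.1% and 20.7%.

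Words of CTCF and of general promoter factors were less frequent in the intronic than in the promoter peaks. The CTCF core words AGGGGGCG and AGGTGGCA were in 4.75% of the shared intronic peaks, 1.31% of the windows and 8.22% of promoter peaks. The GC box GGGCGG, bound by SP factors, was in 7.69% of the intronic and 42.5% of the promoter peaks. The AP-1 word TGANTCA was in 9.82% of the peaks and 5.69% of the windows. The interferon-response word GAAANNGAA was in 7.52% and 6.50%, the C/EBP word TTGCNNAA in 8.96% and 7.65%, and the MYB word AACTGNC in 12.4% and 9.65%. The EBF1 word TCCCNNGGG was in 3.49% of the peaks, 2.52% of the windows and 6.00% of promoter peaks. Below the windows were the TCF/LEF words CTTTGAA and CTTTGAT, with 5.15% against 7.73%, and the STAT word TTCNNNGAA, with 4.94% against 6.43%. The FOXO word TGTTTAC gave 2.43% against 2.92%, and the MEF2 word CTAAAAATA 0.431% against 0.414%.

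Some words followed the level of the peak. From the 20% of shared intronic peaks with the lowest to the 20% with the highest MPP3 level per kb, the share with a RUNX word went from 31.7% to 38.5%, that with a GATA word from 12.1% to 16.2% and that with a GC box from 5.04% to 11.3%. The PU.1 word was in 11.8% of both. Median length went from 232 to 394 bp and median GC content from 49.5% to 52.2%, so these shares do not separate level from length or base composition.

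Peaks of a single cell type differed from the shared ones in these words. The ETS words were in 14.5% of the distal intronic peaks found in MPP3 cells alone and 22.2% of those found in MPP4 cells alone, both below the 25.4% of shared peaks. The GATA words AGATAA and TGATAA were in 20.3% of the peaks in MPP3 cells alone, 13.9% of the shared peaks and 10.0% of the peaks in MPP4 cells alone. The GATA share of the shared peaks was below the 19.3% of the windows. RUNX words were in 26.0%, 34.6% and 33.7% in the same order.

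GATA words were more frequent in MPP3-high than in MPP4-high pairs. Comparing words between these sets was not planned before the files were seen. They were in 457 of 1152 MPP3-high pairs (39.7%, 36.9 to 42.5%) and in 130 of 1665 MPP4-high pairs (7.81%, 6.61 to 9.20%). In pairs within 0.5 log2 units the share was 12.7%. The intergenic pairs showed the same order, with 38.8% of MPP3-high and 8.91% of MPP4-high pairs, so the pattern was not particular to introns. Per kb of each peak, 59.3% of the MPP3-high and 6.18% of the MPP4-high intronic pairs held a GATA word.

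The difference rose with the number of GATA words in the window. The 20772 pairs without a GATA word had a median difference of −0.14, and 3.35% of them were MPP3-high. The 3029 pairs with 1 word had a median of 0.11 and 12.1% MPP3-high pairs, and the 294 pairs with 2 words had 0.39 and 24.5%. In the 31 pairs with 3 or more words, the median was 1.03, 17 were MPP3-high and 0 were MPP4-high. The relation to GATA words was also seen in pairs with a RUNX word, of which 14.1% were MPP3-high with and 3.14% without a GATA word.

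RUNX and E-box words went with MPP4-high pairs. RUNX words were in 44.9% (42.6 to 47.3%) of MPP4-high and 33.9% (31.3 to 36.7%) of MPP3-high pairs. The E-box words CAGGTG and CAGCTG, of the kind bound by E2A, were in 42.2% (39.8 to 44.5%) and 26.0% (23.6 to 28.7%). Over all shared intronic peaks this E-box share was 30.3%, and it was 22.2% in the windows. The E-box word CAGATG, of the kind bound by TAL1, was in 27.5% of MPP4-high and 18.7% of MPP3-high pairs. Of the 2402 pairs with both a RUNX and an E2A-type word, 12.9% were MPP4-high, compared with 4.83% of the 10880 pairs with neither. ETS words differed less, with 25.3% of MPP4-high and 20.9% of MPP3-high pairs. Over whole MPP3 peaks, which are longer in MPP3-high pairs, the contrast was smaller. RUNX words were then in 50.0% of MPP4-high and 47.2% of MPP3-high pairs, and E2A-type words in 49.8% and 41.6%. The word CAGATG was in 33.9% and 31.4% over whole MPP3 peaks, and in 27.6% and 19.3% at the MPP4 peak center. The order of ETS words turned, with 28.8% of MPP4-high and 30.0% of MPP3-high pairs, and at the MPP4 peak center they were in 22.8% and 22.5%. The PU.1 word kept its order, with 11.1% of MPP4-high and 7.12% of MPP3-high pairs. It was in 12.4% and 10.2% over whole MPP3 peaks, and in 9.61% and 8.25% at the MPP4 peak center.

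Rarer words also differed in share between both directions. The HOXA9 word TGATTTAT was in 167 peaks (0.692%, against 0.922% of the windows) with a median difference of −0.54. Of the 167, 34 were MPP4-high (20.4%, against 6.90% of all pairs) and 6 MPP3-high (3.59%, against 4.77%). The C/EBP word was in 12.5% (10.7 to 14.5%) of MPP3-high and 5.83% (4.80 to 7.06%) of MPP4-high pairs. The EBF1 word was in 67 MPP3-high pairs (5.82%, 4.61 to 7.32%) and 36 MPP4-high pairs (2.16%, 1.57 to 2.98%). The levels of *Ebf1* KO libraries enter both means, so these shares do not describe cells with EBF1 alone. The interferon-response word was in 8.77% (7.50 to 10.2%) of MPP4-high and 4.51% (3.46 to 5.87%) of MPP3-high pairs, and over whole MPP3 peaks in 11.5% and 9.29%. CTCF core words were less frequent in both sets, with 2.52% and 2.76%, than in pairs within 0.5 log2 units, with 5.57%.

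Among the 9446 pairs with a log2 CPM of at least 3 in either cell type, the 10 with the largest difference toward MPP3 cells ranged from 2.91 to 3.73. Of these, 8 held a GATA word, 4 a RUNX word and 4 an E-box word of either kind, E2A or TAL1. Over the 9446 pairs these shares were 14.7%, 38.6% and 46.8%. Each of the 10 pairs met the level limit through its MPP3 level alone, so their counts only describe the chosen pairs. The largest was in *Gm42936*, with 4.71 in MPP3 and 1.01 in MPP4 cells, followed by *Uhrf1bp1l* with 4.30 and 0.72. Peaks in *Iqgap2*, a scaffold protein of the cytoskeleton, had 4.0 and 0.83, and in *Igf1r*, the receptor of insulin-like growth factor 1, 3.90 and 0.81. In *Nfix*, a transcription factor of the nuclear factor I family, the levels were 4.73 and 1.85, and its window held 2 GATA words. The others lay in *Schip1*, *Ano6*, *Slc12a7*, *4933424L21Rik* and *Usp40*. All 10 remained above 0 per kb of each peak, with differences from 1.15 to 2.44. Their median length was 454 bp in MPP3 and 178 bp in MPP4 cells, so the MPP4 peak was near the shortest length called.

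The 4 largest are shown as such windows of the plus strand of mm10, with GATA words in capitals.
*Gm42936* intron 2, chr5:36597804-36598004: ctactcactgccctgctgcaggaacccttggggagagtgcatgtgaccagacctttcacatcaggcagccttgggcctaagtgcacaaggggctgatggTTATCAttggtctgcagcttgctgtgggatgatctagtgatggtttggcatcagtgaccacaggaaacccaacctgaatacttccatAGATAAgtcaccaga
*Uhrf1bp1l* intron 11, chr10:89791986-89792186: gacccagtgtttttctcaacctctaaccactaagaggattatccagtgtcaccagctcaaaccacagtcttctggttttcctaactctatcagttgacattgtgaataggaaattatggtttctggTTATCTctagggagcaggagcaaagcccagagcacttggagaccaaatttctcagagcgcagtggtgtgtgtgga
*Iqgap2* intron 28, chr13:95657254-95657454: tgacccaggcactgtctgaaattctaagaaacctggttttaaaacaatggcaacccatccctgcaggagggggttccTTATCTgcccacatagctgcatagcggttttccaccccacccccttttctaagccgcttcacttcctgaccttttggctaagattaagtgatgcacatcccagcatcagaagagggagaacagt
*Igf1r* intron 8, chr7:68189355-68189555: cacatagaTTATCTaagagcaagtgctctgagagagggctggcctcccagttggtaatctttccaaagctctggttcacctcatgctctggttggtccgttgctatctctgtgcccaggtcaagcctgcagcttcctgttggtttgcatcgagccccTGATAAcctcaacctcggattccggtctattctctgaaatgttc

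The 10 pairs with the largest difference toward MPP4 cells ranged from −3.93 to −2.92, and 0 of these held a GATA word, 4 a RUNX word and 7 an E-box word of either kind, beside the same shares over the 9446 pairs. The RUNX count was the same in both sets of 10 and close to that share. Each of these 10 pairs met the level limit through its MPP4 level alone, so their counts only describe the chosen pairs. The largest was in the antisense gene *4933432K03Rik*, with 2.01 in MPP3 and 5.97 in MPP4 cells. The peak in the lincRNA gene *2610027F03Rik* had 0.57 and 4.13. In *Rftn1*, which encodes the lipid raft protein raftlin, the levels were 2.49 and 5.66, and in the dynein gene *Dnah7a* 0.82 and 3.96. A peak in the first intron of *Runx3*, a RUNX factor of lymphocytes, had 1.63 and 4.73. The others were in *Wnt7a*, *Ctdp1*, *Cdc27*, *Yeats4* and *Myo9b*. Here the MPP3 peak was the short one, with a median of 177.5 bp against 704 bp in MPP4 cells. The word windows were centered on the MPP3 peaks, so much of the MPP4 peak sequence was not searched. Per kb of each peak, the differences ranged from −2.87 to −0.66.

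For comparison with the MPP3-high sequences, the 4 largest are shown in the same way, with RUNX and E2A-type E-box words in capitals. The gene *2610027F03Rik* had no annotated transcript with an intron over the peak.
*4933432K03Rik* intron 2, chr7:121516769-121516969: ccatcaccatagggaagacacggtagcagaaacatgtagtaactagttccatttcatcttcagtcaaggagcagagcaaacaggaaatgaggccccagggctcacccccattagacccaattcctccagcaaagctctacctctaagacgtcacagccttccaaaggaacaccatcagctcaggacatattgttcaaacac
*2610027F03Rik*, chr1:120683505-120683705: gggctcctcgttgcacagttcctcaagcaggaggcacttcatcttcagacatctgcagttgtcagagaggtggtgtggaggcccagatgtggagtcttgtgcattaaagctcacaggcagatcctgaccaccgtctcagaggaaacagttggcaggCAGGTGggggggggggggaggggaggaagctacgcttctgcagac
*Rftn1* intron 7, chr17:50025724-50025924: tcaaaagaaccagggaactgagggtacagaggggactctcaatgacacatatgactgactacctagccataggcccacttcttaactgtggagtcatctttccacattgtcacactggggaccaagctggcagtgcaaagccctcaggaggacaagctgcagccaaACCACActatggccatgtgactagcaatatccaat
*Dnah7a* intron 6, chr1:53664398-53664598: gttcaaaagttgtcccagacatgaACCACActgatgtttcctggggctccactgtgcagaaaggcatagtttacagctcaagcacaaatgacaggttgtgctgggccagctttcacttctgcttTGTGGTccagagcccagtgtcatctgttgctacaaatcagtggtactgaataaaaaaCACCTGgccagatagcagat

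Genes of 9 lists were examined next, each beside the median difference of −0.10 over all pairs, of which 4.77% were MPP3-high and 6.90% MPP4-high. Among 16 stem and progenitor transcription factors, 14 had shared intronic peaks. Their 113 peaks had a median difference of −0.10, with 8 MPP3-high (7.08%, against 4.77%) and 9 MPP4-high pairs (7.96%, against 6.90%), so by their median as a group they did not lie apart from all pairs. Individual genes went both ways. All 4 peaks in *Hlf* were lower in MPP3 cells, with a median of −0.71, as were 10 of 12 in *Mecom*, which encodes EVI1, with a median of −0.54 over the 12. All 4 in *Myb* were higher in MPP3 cells, with a median of 0.39. Per kb of each peak, these directions were not kept by all peaks of *Hlf* and *Myb*. The *Hlf* peaks then had 4.12, 4.0, 4.17 and 4.26 in MPP3 cells, and 4.17, 4.4, 4.82 and 4.2 in MPP4 cells. The *Myb* peaks had 3.6, 4.23, 3.98 and 4.97 in MPP3 cells, and 3.43, 3.25, 4.02 and 5.06 in MPP4 cells.

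*Runx1* and *Erg*, which act together in blood stem cells, had 16 shared intronic peaks each. The *Runx1* peak with the highest level per kb, at chr16:92801564-92802058 in intron 2 and 23967 bp from the closest transcript start, had 6.04 in MPP3 and 6.16 in MPP4 cells. Of the *Runx1* peaks, 12 were below 0, with a median of −0.17 over the 16, and 1 was high in each direction. The MPP3-high one, at chr16:92822063-92822652, had 5.94 and 4.74, a difference of 1.24. The MPP4-high one, at chr16:92639154-92639403, had 2.23 and 3.43, a difference of −1.16. In *Erg*, 8 peaks were below and 8 above 0, with a median of −0.08 and a lowest value of −0.94. Of the 16, 4 were MPP3-high and 0 MPP4-high, where all pairs had 4.77% and 6.90%. Per kb of each peak, these 4 had 4.52, 3.98, 5.74 and 6.67 in MPP3 cells. Their MPP4 levels were 3.84, 4.23, 5.11 and 5.96. The one with the largest difference, 1.84, was thus lower in MPP3 cells per kb. The *Erg* peak at chr16:95439822-95440163 in intron 3 had 5.12 and 3.86, a difference of 1.30, and its window held 3 GATA words. *Gata2*, a GATA factor of stem cells and the megakaryocytic and mast cell branches, had a single shared intronic peak. It lay in intron 4 at chr6:88202953-88203381, 1278 bp from the closest start, with 4.94 in MPP3 and 5.13 in MPP4 cells.

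The windows of these peaks, at the center of each MPP3 peak, are shown because each carries a GATA word. Capitals mark GATA words and, in *Gata2*, the E-box word CATCTG, the reverse complement of CAGATG, and in *Runx1* the RUNX word.
*Gata2*, chr6:88203067-88203267: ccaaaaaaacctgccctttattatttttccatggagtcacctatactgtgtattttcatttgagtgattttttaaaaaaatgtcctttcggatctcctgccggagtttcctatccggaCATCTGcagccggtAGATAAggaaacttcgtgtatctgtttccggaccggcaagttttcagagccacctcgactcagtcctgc
*Erg*, chr16:95439893-95440093: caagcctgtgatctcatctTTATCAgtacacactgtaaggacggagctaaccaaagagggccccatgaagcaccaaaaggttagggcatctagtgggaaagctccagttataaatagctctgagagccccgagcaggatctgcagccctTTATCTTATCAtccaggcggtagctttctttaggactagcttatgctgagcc
*Runx1*, chr16:92801711-92801911: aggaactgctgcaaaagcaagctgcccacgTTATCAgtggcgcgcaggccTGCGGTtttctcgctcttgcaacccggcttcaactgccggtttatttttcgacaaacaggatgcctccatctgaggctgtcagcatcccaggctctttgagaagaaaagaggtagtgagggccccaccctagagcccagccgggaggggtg

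In the *Gata2* window, the E-box word CATCTG was followed 8 bases later by AGATAA. This arrangement, on either strand, was found in 5 of the 24126 windows of shared intronic peaks and in 2 of the 36675 windows outside of peaks. Besides *Gata2*, the peaks were in *Samd14*, with 2.66 in MPP3 and 1.14 in MPP4 cells, *Ldlrad3*, with 5.31 and 4.90, *Tbc1d7*, with 3.68 and 3.76, and *Trip4*, with 2.78 and 2.82. *Samd14*, with a difference of 1.55, was the MPP3-high one. These genes were named after their values were seen. With any E-box of the form CANNTG and either GATA word at the same spacing, there were 44 peaks (0.182%) and 42 windows (0.115%). The median difference of the 44 peaks was 0.45, with 11 MPP3-high and 0 MPP4-high pairs. All 44 hold a GATA word by this rule, and the 3354 pairs with any GATA word had a median of 0.13, with 13.6% MPP3-high.

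Differences at early lymphoid genes were shifted toward MPP4 cells by their median. Of 21 genes, 17 had shared intronic peaks, and 96 of their 139 peaks (69.1%) had a difference below 0, compared with 57.4% of all pairs. The median was −0.25, and −0.17 after GC centering, where all pairs had −0.03. Per kb of each peak it was −0.2, where all pairs had −0.04. There were 6 MPP3-high (4.32%) and 11 MPP4-high pairs (7.91%), close to the 4.77% and 6.90% of all pairs. At *Flt3*, 6 of 7 peaks were below 0. The *Flt3* peak in intron 9 at chr5:147366341-147366800 had 5.04 in MPP3 and 6.17 in MPP4 cells, a difference of −1.09. In *Lef1*, a factor of early lymphocytes, 6 of 7 peaks were below 0, with a median of −0.73. Its peak at chr3:131157398-131157872 had 3.52 and 5.08. All 5 peaks in *Bcl11a* were below 0, with a median of −0.25, but not all were lower in MPP3 cells per kb of each peak. They then had 4.35, 4.46, 4.61, 4.26 and 3.98 in MPP3 cells. Their MPP4 levels were 4.37, 4.36, 4.72, 4.59 and 3.86. *Ikzf1*, which encodes Ikaros, had 10 peaks with a median of −0.41, *Notch1* had 5 with −0.35, and *Bach2* had 24 with −0.28. The single *Tcf3* peak, in the gene of E2A, had a difference of 0.31, and the 12 peaks in *Tcf4* had a median of 0.01.

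Among B lineage genes, the X-linked *Btk* could not be seen in these autosomal tables. The 10 others of the list without a shared intronic peak had a median of 1.83 kb of intron sequence in which it could lie. Of 14 autosomal genes, *Ebf1*, *Pax5*, *Blnk* and *Blk* had 19 shared intronic peaks between them, of which 15 (78.9%) were below 0. The median difference was −0.44, with 4 MPP4-high pairs (21.1%, against 6.90% of all pairs) and 1 MPP3-high pair (5.26%, against 4.77%). It was −0.13 per kb of each peak and −0.76 over the 9 peaks at or above a log2 CPM of 2 in both tables. All pairs had −0.04 and −0.18 under these settings. All 4 peaks in *Blk*, a kinase of B cell receptor signaling, were below 0, and the one at chr14:63377208-63377791 had 4.66 in MPP3 and 5.78 in MPP4 cells. All 3 in *Blnk*, an adaptor of the same receptor, were below 0, the highest having 4.33 and 4.93. Per kb of each peak, the *Blnk* peaks had 3.19, 3.45 and 5.52 in MPP3 and 3.19, 3.42 and 5.95 in MPP4 cells. The *Blk* peaks had 5.43, 4.52, 4.82 and 5.56 in MPP3 cells, and 6.52, 4.95, 4.59 and 6.4 in MPP4 cells. Not all peaks of these genes were thus lower in MPP3 cells per kb. *Pax5*, the B cell identity factor, had 3 peaks with a median of −0.28.

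*Ebf1*, the gene deleted in the *Ebf1* KO mice, had 9 shared intronic peaks on chromosome 11, of which 6 were below 0. Of the 9, 3 were MPP4-high and 1 was MPP3-high, where all pairs had 6.90% and 4.77%. The lowest difference, −1.73, was at chr11:44881187-44881643 in intron 7, with 3.38 in MPP3 and 5.15 in MPP4 cells. The peak at chr11:44892895-44893450 in intron 8 had 3.03 in MPP3 and 4.11 in MPP4 cells, a difference of −1.04. Per kb of each peak, the intron 7 site had 4.51 and 5.97, and the intron 8 site had 3.87 and 4.87. In contrast, the peak at chr11:44920059-44920540 in intron 9 had 2.26 and 0.47, a difference of 1.83, and its levels per kb were 3.31 and 3.20. The MPP4 peak at this intron 9 site was thus short, and its levels differed little per kb between the cell types. The means include libraries with and without *Ebf1*, and their shares in these levels were not analysed here.

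The window of the shared intronic *Flt3* peak with the highest MPP4 level is shown because it lies in the gene that defines the MPP4 gate, with its RUNX words in capitals.
*Flt3*, chr5:147366471-147366671: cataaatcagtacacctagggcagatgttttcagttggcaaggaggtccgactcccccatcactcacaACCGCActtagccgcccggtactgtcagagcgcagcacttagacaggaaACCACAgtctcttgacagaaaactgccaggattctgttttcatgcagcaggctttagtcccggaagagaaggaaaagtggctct

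Myeloid genes had 21 shared intronic peaks in 9 of 22 genes, with a median difference of 0.04. The median was −0.01 with at least 50% of both peaks shared and 0.15 per kb of each peak. It was 0.14 over the 14 peaks at or above a log2 CPM of 2 in both tables. All pairs had −0.10, −0.04 and −0.18 in the same order. MPP3-high and MPP4-high pairs numbered 1 each (4.76%, against 4.77% and 6.90% of all pairs). The MPP3-high pair was in *Il6ra*, the receptor of interleukin 6, at chr3:89883704-89884122, with 3.02 in MPP3 and 0.84 in MPP4 cells and 2 GATA words in its window. The MPP4-high pair was in *Csf3r*, the receptor of G-CSF, with 1.79 and 2.88. *Spi1*, the gene of PU.1, had 4 peaks with a median of −0.01. Both peaks assigned to *Prtn3*, which encodes proteinase 3, were above 0, with differences of 0.29 and 0.61, and 2 of 3 in *Itgam* were above 0. The single *Csf1r* peak, in intron 1, had 5.66 in MPP3 and 6.06 in MPP4 cells, and the receptor of M-CSF was thus open in both. The genes of this list are short, and the rule of the set limits what can be found in them. Of the 13 genes without a shared intronic peak, 5, among them *Cebpa*, had no intron sequence more than 1 kb from every start. *Cebpe* and *Elane* had 0.299 and 0.318 kb of it, and *Mpo* and *Irf8* had 3.40 and 7.36 kb. Over the 307 kb of such sequence in the list, there were 6.84 peaks per 100 kb, the most of the 9 lists.

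Erythroid and megakaryocyte genes had 23 peaks in 6 of 14 genes, with a median of 0.10 and 10 peaks (43.5%) below 0. The median was −0.08 over the 14 peaks at or above a log2 CPM of 2 in both tables, where all pairs had −0.18. In *Zfpm1*, which encodes the GATA cofactor FOG1, 6 of 8 peaks were above 0. The *Zfpm1* peak at chr8:122296652-122297005 had 3.04 in MPP3 and 1.57 in MPP4 cells, a difference of 1.50, with a GATA word. The single peaks in *Nfe2* and *Gfi1b* had differences of 0.71 and 0.57. *Vwf*, by contrast, had 4 of 6 peaks below 0, with a median of −0.27. The defining genes *Klf1*, *Epor*, *Itga2b*, *Pf4* and *Slc4a1* had no shared intronic peak, and the 8 genes without one had a median of 3.13 kb in which it could lie. The CPM of all 23 peaks summed to a log2 value of 7.97 in MPP3 and 8.10 in MPP4 cells. Whether erythroid or megakaryocytic cells in the gates had a part in these values was not tested.

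T lineage genes had 17 peaks in 8 of 15 genes, with a median of −0.03, or 0.10 per kb of each peak, and 2 high pairs (11.8%) in each direction, against 4.77% and 6.90% of all pairs. The highest in MPP3 cells was in *Gata3*, with 5.07 in MPP3 and 4.86 in MPP4 cells, and the highest in MPP4 cells was in *Tox*, with 4.25 and 5.10. The 7 genes without a shared intronic peak, among them *Cd3e*, *Cd3d*, *Cd8a* and *Lck*, had a median of 3.12 kb in which one could lie. Progenitor surface genes had 27 peaks in 9 of 13 genes, with a median of −0.12. The MPP3-high pair (3.70%) was in *Itga4*, an integrin subunit, with a difference of 1.85, and the MPP4-high pairs (7.41%) were in *Flt3* and *Cd44*. *Cd34* had a single peak with 4.13 and 4.29, and the 3 peaks in *Kit* did not exceed 1.75 in either table.

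Chromatin regulators had 105 peaks in 12 of 17 genes, with a median of −0.13, close to that of all pairs, and of 0.04 per kb of each peak. *Dnmt3a*, a DNA methyltransferase, held the strongest of the list, with 6.99 in MPP3 and 7.52 in MPP4 cells at chr12:3855684-3856467. *Arid1b* had 41 peaks, 26 of them below 0, and *Chd7* had 8 of 9 below 0, with a median of −0.35. All 5 peaks in *Hdac7* were above 0, with a median of 0.19. Long neural genes, which served as genes not used by blood cells, had 45 peaks in 10 of 12 genes, with a median of 0.00. Of these, 4 were MPP3-high (8.89%, against 4.77% of all pairs) and 1 was MPP4-high (2.22%, against 6.90%). By these few pairs and by its median, the list lay further toward MPP3 cells than all pairs. Over its 18 peaks at or above a log2 CPM of 2 in both tables, the median was −0.14, close to the −0.18 of all pairs. Both *Csmd1* peaks were MPP3-high, with differences of 1.37 and 1.63. The median level of the 45 peaks was 3.75 per kb in MPP3 cells, below the 4.15 of all shared intronic peaks. *Dlgap1* was an exception, with a peak of 7.34 log2 CPM per kb in MPP3 cells.

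*Tek*, whose promoter drives Cre, had 3 shared intronic peaks, all in intron 1. The peak at chr4:94744937-94745184 had 3.18 in MPP3 and 3.68 in MPP4 cells, that at chr4:94746450-94746809 had 3.50 and 3.42, and that at chr4:94768787-94768936 had 0.91 and 0.77. Reads from copies of *Tek* sequence in the transgene, if it holds these sites, cannot be told apart from reads of the endogenous gene.

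The 5 shared intronic peaks with the highest MPP3 level per kb were all higher in MPP3 than in MPP4 cells. They were chosen by their MPP3 level, so this direction is not independent of the choice. The highest in both tables lay in intron 1 of the lincRNA gene *Gm26561* at chr17:70963591-70963928, with 9.96 log2 CPM per kb in MPP3 and 8.88 in MPP4 cells. A peak in *Gphn*, the gene of the synaptic scaffold gephyrin, at chr12:78350795-78351148 had 9.75 and 8.48. The peak in *Jarid2*, a subunit of Polycomb complexes, at chr13:44869489-44870098 had 9.05 and 7.51. Those in *Gm10722* and *Gm11168*, at the start of chromosome 9, had 9.38 and 8.35, and 9.08 and 8.14, and repeats masked 97.3% and 100% of their sequence. The 5 highest in MPP4 cells included the same peaks in *Gm26561*, *Gphn* and *Gm10722*. The others, in *Ppp1r18* and *Trappc9*, were lower in MPP3 cells, with 8.15 and 8.57 and with 7.93 and 8.43 per kb.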

How the data were processed

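ATAC-seq libraries were sequenced as 100 bp paired reads to a nominal depth of 50 M reads, with 2 libraries for each of the 4 groups. Depth per library was not analysed here. Adapters were trimmed by the authors (Cutadapt 2.10), and reads were mapped to mm10 (Ensembl release 91) with snakePipes 2.5.1, duplicates being dropped and a minimal mapping quality of 5 required. Read-attracting regions and all fragments above 150 bp were removed with deepTools 3.3.2, so that the values report short, nucleosome-free fragments. Peaks were called with MACS2 2.2.7.1 (q of 0.01, shift −75, extension 150 bp, which centers reads on the Tn5 cut) on merged replicates of each condition, and merged per cell type with bedtools 2.30.0. The presence of a peak can therefore not be compared between replicates.

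The mean log2 CPM of each peak, from edgeR 3.32.0 in R 4.0.3, was used as the authors deposited it in a table per cell type. The tables also hold the authors' comparison of genotypes (log2 fold change, F, p-value and FDR), which was not used here. CPM values summed to 1034292 in MPP3 and 1032362 in MPP4 cells.

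Peaks were placed on GENCODE vM21 transcripts and GRCm38 sequence with Python 3.11.15, numpy 2.4.6, pandas 2.3.3 and scipy 1.17.1. Each MPP3 peak was paired with the MPP4 peak of largest overlap. A peak was assigned to the protein-coding gene around its center with the closest transcript start, otherwise to another gene there. Words were counted without mismatches. Overlap, distance and word functions were tested on simulated data. No tests were run. The named genes were those of the sorted markers and of 9 lists, the 5 peaks with the highest level per kb in each table, the 10 genes with the most peaks, the 10 largest differences in each direction at a log2 CPM of at least 3 in either table, *Ebf1* and *Tek*. Some of these are not reported here. The members and lists were chosen with earlier results of these data known. Alternatives changed the distance, gene and exon rules, the overlap, the level filter, the scaling, the pairs and the word window.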

Additional observations from a re-analysis of the deposited data

How the results depend on the processing

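The number of shared intronic peaks remained within 1.5-fold under the distance, gene, exon and overlap rules, whereas 13069 of the 24126 pairs had a log2 CPM of at least 2 in both tables. With transcript starts more than 5 kb away, the overlapping share of distal intronic MPP3 peaks was 70.5%, the median MPP3 level 4.07 per kb, the median difference −0.12, the MPP4-high share 7.46% and the first-intron share 31.4%. The first-intron share was 32.5% in protein-coding genes alone and 35.7% for peaks entirely outside of exons. With at least 50% of both peaks shared, the overlapping share was 68.1%, the median level 4.16, and the MPP3-high and MPP4-high shares were 3.92% and 5.55%. With a log2 CPM of at least 2 in both tables, the median level was 4.67, the median difference −0.18, the MPP3-high and MPP4-high shares 2.76% and 6.96%, and the GATA share of MPP3-high pairs 47.4%. Without centering, the median difference was −0.14 and the shares were 4.37% and 7.67%. Per kb of each peak they were −0.04, 1.31% and 2.35%, with GATA words in 59.3% of MPP3-high and 6.18% of MPP4-high pairs. With centering in GC bins they were −0.03, 5.77% and 5.50%. In pairs without a further overlap, the MPP4-high share was 6.25%. Per peak, the median MPP3 level was 2.32. The GATA share of MPP3-high pairs was 36.7% in windows at the MPP4 center and 50.8% over whole MPP3 peaks, where that of MPP4-high pairs was 11.8%. The cause of these shifts was not tested. The word shares among high pairs, with all their alternatives, the values by distance after GC centering, and the removal of the *Tek* peaks and of 4 satellite peaks on chromosome 9, were chosen after seeing the data. The latter left the median level at 4.15 and the median difference at −0.10. Of 90 values of list medians under alternatives, 89 were within the 95% binomial interval of the main median. So were 65 of 90 word shares, and 18 of the other 25 came from whole peaks. The alternatives reuse the same peaks, the intervals treat peaks as independent, and those of short lists are wide. The B lineage median of −0.44, for example, became −0.13 per kb and −0.76 with the level filter, both within its interval. These counts therefore do not measure how stable a median is. Of 66 values of GATA, RUNX and E2A-type shares among high pairs, 52 were within the interval and 14 were not. No median whose interval excluded 0 reversed its sign.

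No paired analysis was possible because no test was run and the tables carry no replicate values, and leaving out a replicate was not possible for the same reason. Depth per library was not analysed here, so its part in which peaks were shared was not tested. The levels average both genotypes. Words without mismatches miss weaker sites.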

Other observations

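Some genes had median differences far from those of other genes. Those named here are the 3 with the lowest and the 3 with the highest median among the 1374 genes with at least 5 shared intronic peaks, a rule set after the values were seen. The gene medians had a median of −0.14, and 4.77% of all pairs were MPP3-high and 6.90% MPP4-high. All 5 peaks in *Asic2*, an acid-sensing ion channel gene of 1088 kb, were MPP4-high, with differences from −2.29 to −1.41. In *Ctdp1*, 5 of 7 were MPP4-high, with a median of −1.18 and a highest value of −0.23. In *Sdk1*, a neural adhesion gene of 974 kb, 5 of 10 were MPP4-high, with a median of −1.06 and a highest value of 0.19. In the opposite direction, *Dpf3*, a subunit of the BAF remodeler, had a median of 1.38 over 5 peaks, the lowest at −0.62. All 9 peaks in *Sfi1* were above 0, from 0.71 to 1.93, and 6 were MPP3-high. *Slc28a3*, a nucleoside transporter, had a median of 1.13 over 5 peaks, and 3 were MPP3-high.

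Repeats masked at least 90% of the sequence in 197 shared intronic peaks (0.817%). Of these, 17 (8.63%) were MPP3-high and 4 (2.03%) MPP4-high, compared with 4.77% and 6.90% of all pairs. The 4 peaks in satellite sequence at the start of chromosome 9 had differences of 1.09, 1.04, 0.93 and 1.10.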
